A study of Bos grunniens with 3 samples.

Results

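Endothelial cells of white yak hair follicle skin were taken as the cells with at least 200 detected genes and at least 3 unique molecular identifiers (UMIs) summed over *PECAM1*, *CDH5*, *VWF* and *EMCN*. They numbered 124 of 38551 kept cells, 0.322% (95% Clopper-Pearson interval 0.268 to 0.383). The anagen library gave 65 of them, the catagen library 23 and the telogen library 36. The study collected scapula skin of healthy Tianzhu white yaks about 2 years old in hair growth (anagen), regression (catagen) and rest (telogen), with no treatment or genetic change in any group. The skin was digested with 0.25% dispase for 2 h, follicles were pulled out, cells were released by 0.5 h in 0.25% trypsin and passed through a 40 µm sieve, and 1 10x Genomics 3′ library was made per stage. The protocol text deposited with the catagen library names anagen, so its stage rests on its title and stage label. The paper, which covers anagen and catagen, names 3 yaks and does not say how they map to the libraries. Stage, library and software version changed together and cannot be told apart, and vessel cells were caught only as far as they stayed with plucked follicles. With 1 library per stage there was no replicate and no test, and every interval below covers counting error only.

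Endothelial cells line the blood and lymphatic vessels. PECAM1 and CDH5 (VE-cadherin) sit at the contacts between them, VWF is the clotting protein that blood vessel endothelium stores, and EMCN is a sialomucin of capillary and venous endothelium. Venules are the segment where leukocytes leave the blood, with the help of the selectins SELE and SELP and the chemokine-binding receptor ACKR1, whereas lymphatic endothelium depends on the transcription factor PROX1 and secretes CCL21, the chemokine that draws dendritic cells and T cells into lymphatic vessels. The hair follicle has its own vessel network, which is known to be remodelled over the hair cycle.

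The share of endothelial cells was 0.542% (0.419 to 0.691) of 11987 kept cells in anagen, 0.191% (0.121 to 0.286) of 12062 in catagen and 0.248% (0.174 to 0.344) of 14502 in telogen. The anagen interval lay above those of catagen and telogen, whereas catagen and telogen overlapped. The libraries differed in depth. The median endothelial cell held 4006 UMIs in anagen, 2425 in catagen and 4455 in telogen, against 5256, 3350 and 5583.5 for all kept cells, and the smallest kept cell held 2404, 500 and 500 UMIs. With each cell thinned to 1500 UMIs, and the 2263 catagen and 2932 telogen cells below that total left out, the shares were 0.342% (0.246 to 0.464), 0.143% (0.0781 to 0.240) and 0.207% (0.133 to 0.308). The anagen interval then overlapped that of telogen and lay just above that of catagen. UMIs of *PECAM1* below the threshold also differed between libraries. A *PECAM1* UMI was found in 0.596% of the other anagen cells, 0.0914% of the other catagen cells and 0.152% of the other telogen cells. *CDH5* and *EMCN* were also seen most often in the other anagen cells. *VWF* was not, at 0.109%, 0.125% and 0.118% in anagen, catagen and telogen. The part of such UMIs in the shares was not tested. Between libraries, 43 cell barcodes were shared by anagen and catagen, 40 by anagen and telogen and 49 by catagen and telogen. No barcode was an endothelial cell in more than 1 library.

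**Figure D1:**
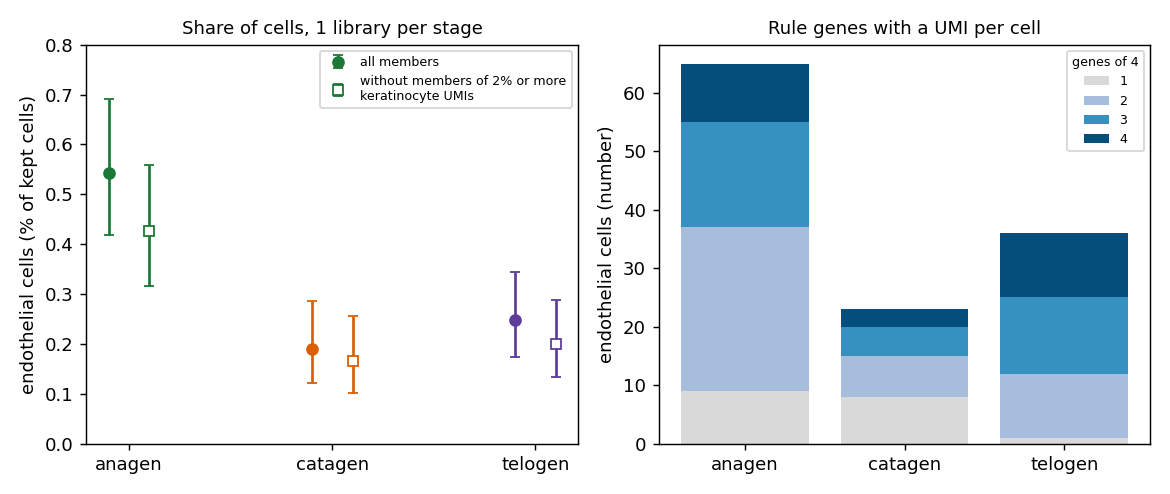
Left, the share of kept cells that were endothelial (y axis, %) in the 1 library of each stage, for all 124 cells (filled circles) and for the 100 with under 2% keratinocyte UMIs (open squares), with 95% Clopper-Pearson intervals; the anagen values are the highest in both sets. Right, the number of endothelial cells with a UMI of 1, 2, 3 or 4 of the rule genes, of which 18 cells rested on a single gene.

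*PECAM1* (ENSBGRG00000011037) carried most of the rule, with 1241 of its 1751 UMIs and a UMI in 122 of the 124 cells. *EMCN* (ENSBGRG00000002544) was seen in 81 cells, *VWF* (ENSBGRG00000002102) in 63 and *CDH5* (ENSBGRG00000011034) in 48. All 4 genes were seen in 24 cells, 3 in 36, 2 in 46 and 1 in 18. These genes chose the cells, so their levels are only described. Just outside the threshold lay 24 cells with 2 UMIs, and just inside it 18 cells with 3. The 15 other endothelial genes with a row that the rule did not use summed to 306 CPM (UMIs scaled to 1000000 UMIs of the same cells) in the cells with 2 UMIs, 671 CPM in those with 3, 1169 CPM in those with 4 and 3368 CPM in the 95 cells with 5 or more, against 32.3 CPM in the cells with none. The summed level thus stepped up through the threshold and did not jump at it. The sum mainly followed *RAMP2*, which gave 1661 of its 2316 UMIs in the 124 cells and 30.7 of 35.4 CPM in the other cells.

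Genes outside the rule were also read against the label, as a description, since the cells were chosen by genes that vary together with them. Of 20 further endothelial genes, 15 had a row in the matrices, and 7 of the 15 were at least 4-fold higher in the endothelial cells than in the other cells with 10 CPM added to each side. Over all genes with a symbol and a UMI this held for 1.1%. With the added CPM a gene that is near 0 in the other cells passes at a modest level in the endothelial cells, so such counts mainly say which genes were detected. The 7 were *ROBO4*, a guidance receptor of endothelium, *RAMP2* and *CALCRL*, which form the adrenomedullin receptor, *ENG*, a co-receptor for TGF-β and BMP ligands, *TEK*, the angiopoietin receptor, *KDR*, the main receptor for VEGF-A, and *ERG*, a transcription factor of endothelial identity. *RAMP2* was seen in 117 of the 124 cells, at 1421 CPM in anagen, 1786 CPM in catagen and 3085 CPM in telogen, against 37.4 CPM in the other anagen cells and 30.7 CPM over all other cells. *CLDN5*, the tight junction claudin of endothelium, was low, with 7 UMIs in 6 cells (8.64 CPM), and *TIE1* had 4 UMIs and *ESAM* 3.

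Defining markers of other cell types were at 0 in part. The summed platelet, pericyte, fibroblast and Schwann cell lists were higher in the endothelial than in the other cells. For the immune list the interval in the endothelial cells (15.1 to 38.1 CPM) included the 18.9 CPM of the other cells. The part of such cells in the results was not tested. Of 9 immune genes with a row, 7 had no UMI in the endothelial cells, *PTPRC* (CD45) among them, and the 20 UMIs of the list were 17 of *CORO1A* and 3 of *AIF1* (24.7 CPM against 18.9 CPM). Of 12 pericyte and smooth muscle genes, *RGS5*, *KCNJ8*, *ABCC9*, *HIGD1B*, *DES* and *MYH11* had no UMI, *ACTA2* had 4 and *MCAM* 12. The list summed to 529 CPM against 217 CPM, with 410 of its 429 UMIs from *TAGLN*. Fibroblast genes *LUM*, *PDGFRA*, *DPT* and *COL6A1* had none either, while *COL1A2* had 17 UMIs in 3 cells and *DCN* 10 UMIs in 8. Their list summed to 121 CPM against 62.4 CPM, with the microfibril gene *FBN1* as its most abundant at 81.4 CPM against 3.52 CPM (ratio 6.76). The red blood cell genes *ALAS2* and *HBM* had 0 UMIs, the melanocyte list had 3 UMIs, and the Schwann cell list had 19, of which 18 were *S100B*. The Schwann cell list summed to 23.4 CPM against 3.08 CPM, and at 43.3 CPM without the cells rich in keratinocyte UMIs described next. The 2 platelet genes with a row had 10 UMIs, all of *ITGA2B* (12.3 CPM against 5.65 CPM).

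Keratinocyte transcripts varied widely among the endothelial cells, with no gap at the 2% used here. Over all 124 cells the 14 keratinocyte genes summed to 21686 CPM, 56.3% of their 38510.4 CPM in other cells. Their summed UMIs took a median of 0.360% of an endothelial cell, from 0 to 8.42%, against medians of 2.89%, 2.59% and 3.51% in the other cells of anagen, catagen and telogen. In 24 endothelial cells (14, 3 and 7 by stage) the share was 2% or more, a threshold chosen after the values had been seen. These 24 cells had a median of 8223 UMIs, compared with 3407 in the other 100, and held 48.7% of all endothelial UMIs. Without them, left out by these same genes, the sum was 4076 CPM, 10.6% of that in other cells, and *KRT14* was still at 1927 CPM. Whether the 24 are droplets with 2 cells was not tested.

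**Figure D2:**
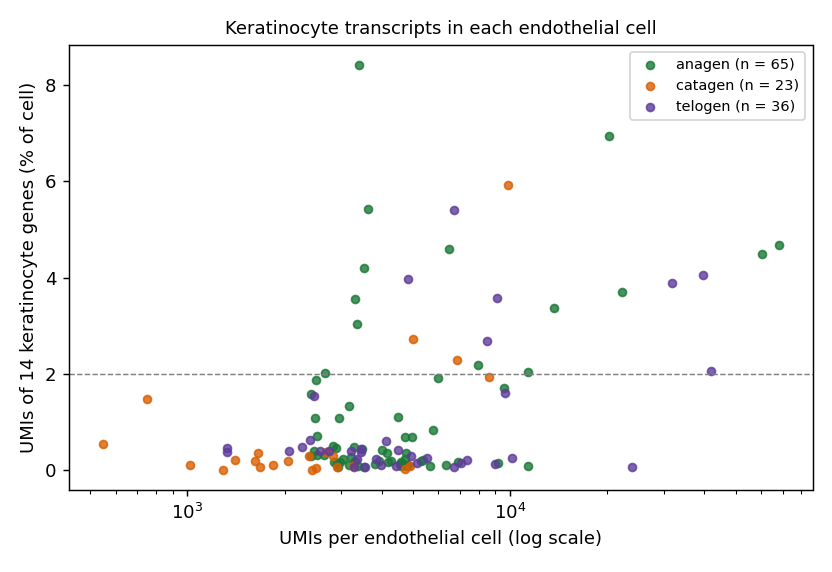
Each point is an endothelial cell, with its total UMIs (x axis, log scale) against the percent of them from 14 keratinocyte genes (y axis), coloured by stage. Most cells lie under 1%, and the 24 at or above the dashed line at 2% include most of the cells with the highest UMI totals.

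The endothelial cells were then compared with all other kept cells, with the other cells weighted to the same mix of libraries and 10 CPM added to both sides of each ratio. Counting the 1787 genes that carry a symbol and reached 50 CPM on either side, without the 4 rule genes, 114 were at least 4-fold higher (6.38%) and 6 at least 4-fold lower (0.336%), and the median log2 ratio over all of them was 0.11. All 114 genes were higher in each of the 3 libraries. Taken alone, anagen had 5.93% of genes at least 4-fold higher and 0.544% lower, catagen 10.5% and 3.47%, and telogen 7.93% and 0.881%. Without the 24 cells rich in keratinocyte UMIs, 228 of 2026 genes were at least 4-fold higher (11.3%), among them all 114, and 78 at least 4-fold lower (3.85%). The cells were chosen by endothelial genes that vary together with many of these, so the counts describe the cells and test nothing.

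Outside the rule genes the highest ratio belonged to *ACKR1* (ENSBGRG00000012260), with 1186 CPM in anagen, 1058 CPM in catagen and 2040 CPM in telogen. It was seen in 60 of the 124 cells and stood at 0.533 CPM in the other cells, a ratio of 142. Next among genes with a symbol came *VIM*, the intermediate filament vimentin that most keratinocytes lack, at 1303, 2871 and 2292 CPM against 8.06 CPM. After thinning, *VIM* was seen in 78.5%, 94.4% and 94.1% of the 65, 18 and 34 endothelial cells deep enough and in 0.830%, 0.583% and 0.615% of the other cells. It was found in 118 of the 124 endothelial cells, against 60 for *ACKR1*.

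The other leading genes fell into a few roles. Leukocyte recruitment was represented by *SELE* (570 CPM, ratio 56.4), *SELP* (382 CPM, ratio 38.6), *JAM2* (155 CPM, ratio 14.8), the chemokine *CCL21* (1077 CPM, ratio 99.2) and the granulocyte growth factor *CSF3* (582 CPM, ratio 56.5). Matrix and its turnover gave *ADAMTS4*, a protease that cleaves proteoglycans (590 CPM, ratio 52.2), *MMRN1*, a secreted multimerin (527 CPM, ratio 51.4), *FBLN2*, *FN1* (fibronectin), its integrin chain *ITGA5*, and *SPARCL1*. Receptors and membrane proteins were *RAMP2*, *ENG*, *ADGRF5*, *PTPRB*, the phosphatase that acts on TEK and VE-cadherin, and *CAVIN2*, a coat protein of caveolae. Cytoskeletal and signalling genes were *RND1* (924 CPM, ratio 31.5), *AKAP12* and the growth factor *PTN*. *DEPP1*, a target of FOXO factors, *TNFSF10* (TRAIL), *IDO1*, which degrades tryptophan, and *CD74*, the invariant chain of MHC class II, were the others. These completed the 25 highest ratios among genes with a symbol. The ratios ran from 13.7 (*PTPRB*) to 142, and 25 of 25 were above 1 in all 3 libraries. Each of the 25 ratios was higher without the 24 cells rich in keratinocyte UMIs, and 24 of the 25 genes stayed among the highest 25.

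**Figure D3:**
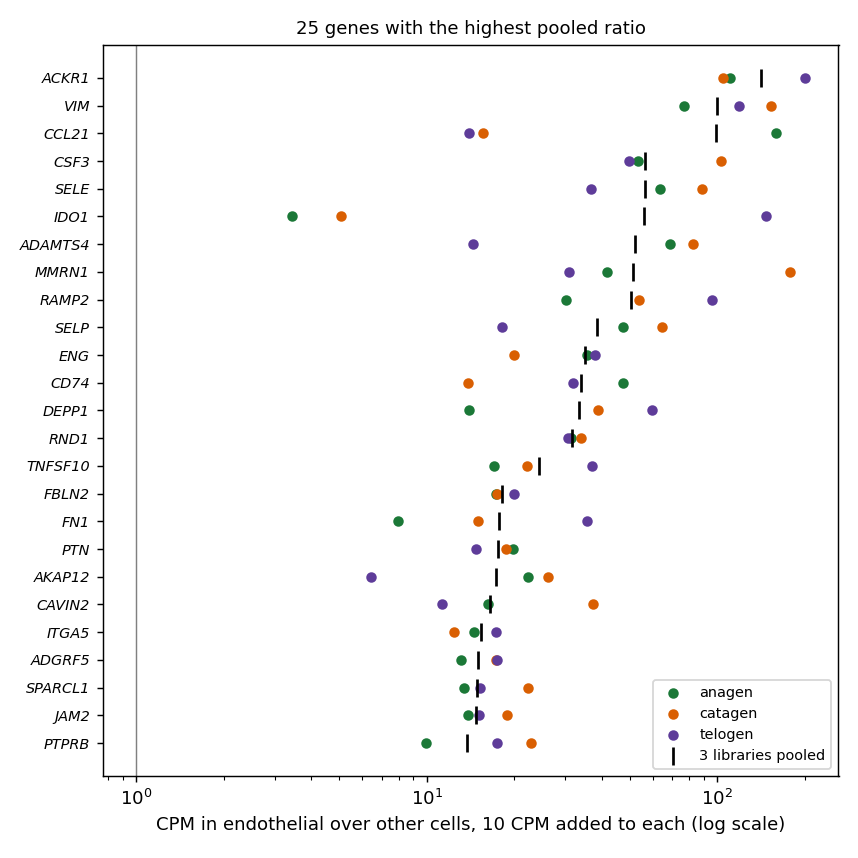
The 25 genes with a symbol and the highest pooled ratio are on the y axis. The x axis (log scale) gives the ratio of CPM in endothelial cells to CPM in other cells, with 10 CPM added to each. Coloured points are anagen, catagen and telogen, and black bars the pooled ratio. Every point lies to the right of 1, and *CCL21*, *IDO1*, *MMRN1* and *ADAMTS4* spread most between libraries.

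*CD74* reached 2301 CPM in anagen, 2280 CPM in catagen and 2878 CPM in telogen, against 38.9, 155 and 80.7 CPM in the other cells. After thinning it was seen in 70.8%, 66.7% and 79.4% of the same endothelial cells and in 5.41%, 15.9% and 8.54% of the others, with the highest share of other cells in catagen. *HLA-DRA*, the class II alpha chain, had 117 CPM against 1.06 CPM. *PTPRC* had 0 UMIs, while the immune list summed to 44.3 CPM in the venous-like cells described below and 4.50 CPM in the lymphatic-like cells, and was not tested as a source. The class I loading genes *TAP1* (37.0 CPM) and *PSMB8* (54.3 CPM, ratio 2.34) did not reach 4-fold.

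Receptors of vessel growth factors were present at lower levels. In the VEGF, angiopoietin and TIE group 4 of 11 genes with a row were at least 4-fold higher (1.1% over all genes), and each of the 4 reached 50 CPM in the endothelial cells alone. *TEK* was at 78.2, 179 and 152 CPM in anagen, catagen and telogen, *KDR* at 67.0, 41.2 and 51.7 CPM and *PTPRB* at 91.6, 220 and 165 CPM. The TEK ligand *ANGPT2* was at 98.7 CPM (ratio 7.64). *ANGPT1*, the activating ligand that is made mainly by cells around the vessel, and *PGF* had 0 UMIs, which allows up to 4.55 CPM, and *VEGFA* was at 30.8 CPM against 47.2 CPM in the other cells. *FLT4*, the receptor for VEGF-C on lymphatic endothelium, had 1 UMI.

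Of the endothelial transcription factors, 8 of 16 with a row were at least 4-fold higher (1.1% over all genes). *KLF2*, which responds to blood flow, was the most abundant of them at 905, 1195 and 1599 CPM by stage against 147 CPM in other cells (ratio 7.56). Of its 464 telogen UMIs, 168 were in 1 cell, without which telogen was at 1112 CPM. *ERG* (ratio 8.43), *ETS1* (7.97), *HHEX* (6.17), *EPAS1* (HIF-2α, 5.23), *FLI1* (5.85), *MEF2C* (4.57) and *TCF4* (4.65) were the rest. *ETS2*, *KLF4* and *ID1*, which keratinocytes also express, had ratios of 1.71, 0.933 and 1.49. In the leukocyte adhesion group 8 of 10 were at least 4-fold higher, with *CD99* just under at 3.70 and *CXCL8* at 2 UMIs.

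The counts of the next groups stand beside the same 1.1% over all genes. In the hemostasis group 4 of 11 genes were at least 4-fold higher: *MMRN1*, *PROCR*, the endothelial protein C receptor (ratio 5.48), *F8*, coagulation factor VIII (5.10), and *PROS1*, protein S (4.37). *F3*, tissue factor, which starts coagulation and is kept out of resting endothelium, was lower in the endothelial cells at 698 CPM than in the others at 1609.8 CPM. The 698 CPM includes the 24 cells rich in keratinocyte UMIs, which held 48.7% of all endothelial UMIs, and their part in it was not tested. For caveolae and transport 3 of 10 genes passed, *CAVIN2* (16.5), *STAB1*, a scavenger receptor (7.06), and *CAVIN3* (5.71), while *CAV1* itself had a ratio of 2.94. *PLVAP*, which forms the diaphragms of fenestrae, was at 27.1 CPM in 17 cells and at 0 UMIs in all other cells. Basement membrane genes passed for *LAMA4* (6.61) and *COL4A1* (4.82), 2 of 10, and *SPARC* was at 527 CPM against 737 CPM. The BMP and TGF-β group had 3 of 12, *ENG*, *TGFBR2* (6.94) and *BMP6* (4.03), and the vasoactive group 2 of 12, *RAMP2* and *CALCRL*, with *ECE1*, the endothelin-converting enzyme, at 285 CPM against 85.2 CPM.

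The 10 lowest ratios ran from 0.144 to 0.307 and were those of the keratins *KRT28*, *KRT75*, *KRT85* and *KRT1*, of *PMP2*, *ELOVL3* (a fatty acid elongase of sebaceous gland), *SERPINE2*, *CXCL14* and the mitotic genes *CENPF* and *TOP2A*. Of these, 9 were lower in all 3 libraries, and *TOP2A* was not. Of the 14 keratinocyte genes 1 was at least 4-fold lower with all 124 cells (*KRT75*), beside 0.336% of all genes tested. It was 12 of 14 without the 24 cells rich in keratinocyte UMIs, beside 3.85%, and these cells were left out by the same genes, so the second count is no independent value.

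Lymphatic and venous genes divided the endothelial cells into separate sets. A cell was called lymphatic-like with at least 3 UMIs summed over *CCL21*, *PROX1*, *MMRN1* and *RELN*, and venous-like with at least 3 over *ACKR1*, *SELE* and *SELP*. *LYVE1* and *PDPN*, further lymphatic markers, had no row, and *STAB2* and *TFF3* had 0 UMIs. *PROX1* itself was seen in 9 of the lymphatic-like cells, with 13 of its 21 UMIs in 1 cell and 1 UMI each in catagen and telogen. Of the venous list, *NR2F2* went the other way, at 99.1 CPM in lymphatic-like against 32.0 CPM in venous-like cells, and *EPHB4* had 4 UMIs in each (18.0 and 9.84 CPM), so the names rest on the genes of the rule. There were 37 lymphatic-like cells (29.8%, 22.0 to 38.7), 57 venous-like cells (46.0%, 37.0 to 55.1) and 30 with neither (24.2%, 17.0 to 32.7). No cell was in both sets (0 of 124, which allows up to 2.93%). The 37 lymphatic-like cells had 0 UMIs of *ACKR1*, *SELE* and *SELP*, although the median venous-like cell held 28. In the opposite direction, 11 of the 57 venous-like cells held 1 UMI of *MMRN1* and none held *CCL21*, *PROX1* or *RELN*. Outside the endothelial cells, 24 of 38427 cells (0.0625%) reached 3 UMIs of the lymphatic genes and 12 (0.0312%) of the venous genes.

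**Figure D4:**
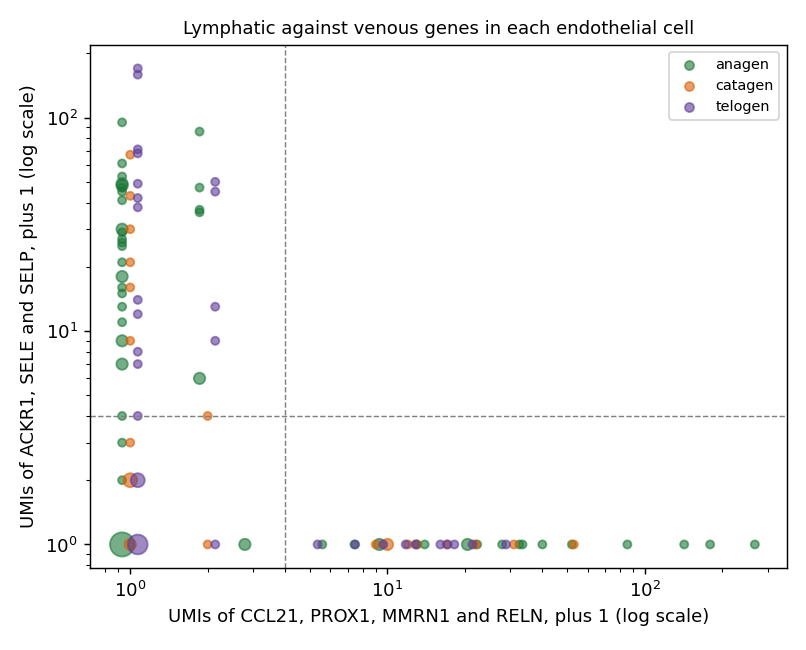
Each circle marks the endothelial cells with a given number of UMIs of 4 lymphatic genes (x axis) and 3 venous genes (y axis), both plus 1 on a log scale, with area in proportion to the number of cells and the stages moved slightly sideways so that they can be told apart. Dashed lines mark 3 UMIs, and the upper right corner, where a cell of both kinds would lie, is empty.

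*VWF*, a gene of the rule, was seen in 0 of 37 lymphatic-like cells, 50 of 57 venous-like cells and 13 of the 30 others. *PECAM1* was seen in 37 of 37 lymphatic-like cells, and *EMCN* in 24 of them. A rule without *PECAM1* left 65 endothelial cells in all, of which 8 (12.3%) were lymphatic-like. Of 959 genes compared, 41 were at least 4-fold higher in the lymphatic-like cells (4.28%) and 36 at least 4-fold lower (3.75%).

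The genes named next, *KLF2* aside, were the 12 on either side with the largest ratio between the sets among genes with a symbol. To be ranked, a gene defined no set and was at least 4-fold higher in the endothelial than in the other cells. It also reached 100 CPM in the set and kept its direction in every library. This rule was set after the values had been seen, so their direction is a description. *TAGLN*, at 2.37-fold over the other cells, fell outside it, with 844 CPM in venous-like and 18.0 CPM in lymphatic-like cells. The first on the lymphatic side was *AKAP12*, a scaffold for protein kinases, with 147 UMIs in 27 of 37 lymphatic-like cells (662 CPM, 559 to 778) and 0 UMIs in 57 venous-like cells (at most 9.08 CPM). *PTN*, pleiotrophin, was seen in 35 of 37 lymphatic-like and 2 of 57 venous-like cells, at 820 and 4.92 CPM. *PKHD1L1* had 248 CPM against 0, and the transcription factor *NR2F1* 266 CPM against 4.92 CPM. *F8*, which lymphatic endothelium is known to make, was seen in 24 of 37 cells against 1 of 57, at 216 and 2.46 CPM. *ANGPT2*, which lymphatic vessels need in development, was at 306 CPM against 14.8 CPM, so that 68 of its 80 UMIs came from lymphatic-like cells. *CAVIN2* (450 against 34.5 CPM), *GPM6A* (351 against 24.6), *GMFG* (234 against 12.3), *STAB1* (198 against 12.3), *GLIPR2* (149 against 9.84) and the laminin chain *LAMA4* (135 against 12.3) followed. *KLF2* was also higher there than in venous-like cells, with 1901 CPM against 475 CPM. It was at 1872 CPM in the cells of neither set, so it was low in venous-like cells and not particular to lymphatic-like cells.

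On the venous side, *CSF3* had 454 UMIs in 31 of 57 venous-like cells (1117 CPM) and 0 in the lymphatic-like cells (at most 16.6 CPM), and *IL6*, the acute phase cytokine, 92 UMIs in 29 cells against 0. *VCAM1*, the ligand of leukocyte integrin α4, was seen in 18 venous-like cells and in none of the other 67 endothelial cells. *ADAMTS4* was at 1115 CPM against 9.01 CPM and *ADAMTS9* at 251 against 4.50 CPM. *SLCO2A1*, the prostaglandin transporter, was at 224 CPM against 0, *BIRC3*, a target of NF-κB, at 327 against 9.01 CPM, *JAM2* at 244 against 9.01, *LIFR* at 239 against 9.01 and *FGF7* at 106 against 0. *CD74* was seen in 57 of 57 venous-like cells at 3362 CPM and in 18 of 37 lymphatic-like cells at 306 CPM, and *HLA-DRA* in 24 and 1. Without the cells rich in keratinocyte UMIs, *CSF3* was at 1996 CPM in 46 venous-like cells and 0 in 31 lymphatic-like cells, and *AKAP12* at 0 and 1200 CPM.

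**Figure D5:**
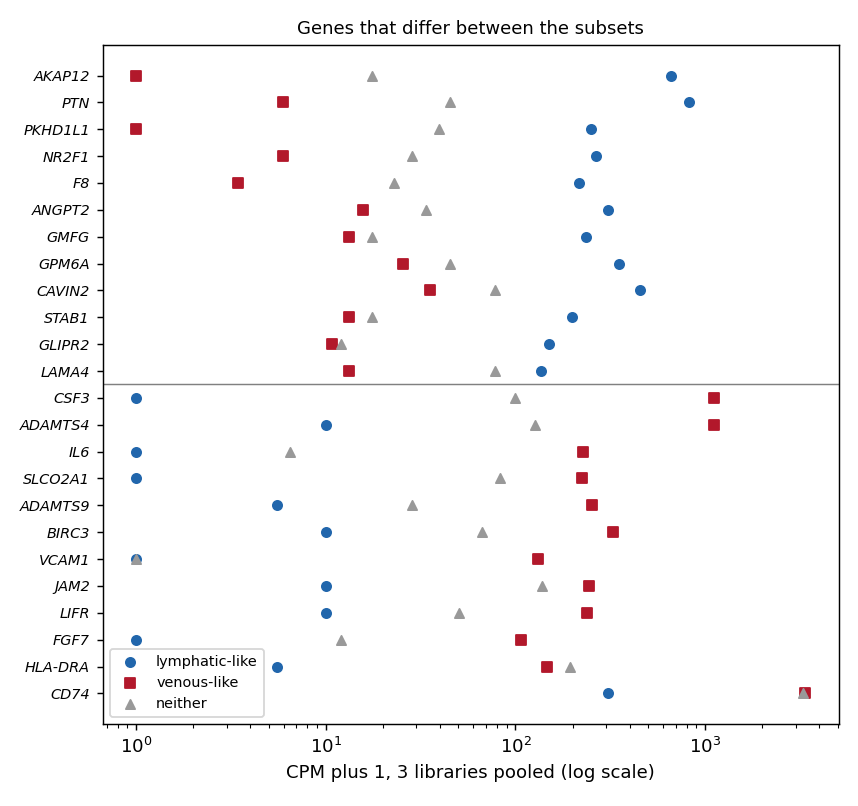
CPM plus 1 (x axis, log scale) of 12 genes on the lymphatic side (above the line) and 12 on the venous side (below) in the 37 lymphatic-like, 57 venous-like and 30 other endothelial cells, pooled over the 3 libraries. The cells of neither set lie between the others for most genes, come close to the venous level for *CD74* and pass it for *HLA-DRA*. They pass it for *HLA-DRA* in telogen alone, and venous-like cells held 19 of its 23 UMIs in anagen and 9 of 11 in catagen. In anagen *CD74* was at 4303 CPM in venous-like cells and 2301 CPM in all endothelial cells, and 1 telogen cell held 235 of 835 telogen UMIs.

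*TAGLN* (SM22), an actin-binding protein best known from smooth muscle, followed the venous set as well. It was seen in 47 of 57 venous-like cells at 844 CPM, in 12 of the 30 cells of neither set at 346 CPM and in 4 of 37 lymphatic-like cells at 18.0 CPM. The pericyte genes *RGS5*, *KCNJ8* and *ABCC9* had 0 UMIs in all of these cells, *MCAM* had 3 UMIs in the venous-like cells and 9 in the cells of neither set, and *ACTA2* had 4 in the venous-like cells. Without the cells rich in keratinocyte UMIs *TAGLN* was at 1154 CPM in the venous-like cells. The other cells of the libraries held 207 CPM.

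Several arterial genes were highest in the 30 cells of neither set. *HEY1*, a Notch target of arterial endothelium, was at 115 CPM in them, 7.38 CPM in venous-like and 4.50 CPM in lymphatic-like cells. The arterial connexin gene *GJA5* (4 UMIs), *FBLN5* (5 UMIs) and *NOTCH4* (2 UMIs) were seen in none of the lymphatic-like and venous-like cells, and 12 of the 15 UMIs of the kinase *BMX* fell in the cells of neither set, at 65.9 CPM. These counts are small. *GJA4* was at 126 CPM in 4 of the 30 cells and at 81.1 CPM in 10 of the lymphatic-like cells, so it did not mark the set. The arterial list as a whole summed to 824 CPM in these cells, against 295 CPM in venous-like and 180 CPM in lymphatic-like cells, with *JAG2*, which keratinocytes also express, as its most abundant gene. Of the capillary list, *RGCC*, *CA4*, *BTNL9*, *TMEM88* and *APLNR* had 0 UMIs in all 124 cells, and *FABP4* and *GPIHBP1* had no row. *CD36* had 1 UMI, and *FABP5* was at 280 CPM against 533 CPM in other cells. *PLVAP*, also on this list, had 20 of its 22 UMIs in 15 venous-like cells, so capillary cells may lie within the venous-like set, which was not tested.

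*IDO1* had the highest ratio of the cells of neither set to the other 2 sets, and rested on few cells. Of its 437 telogen UMIs, 292 were in 1 cell, 95 in the next and 28 in the one after, all of neither set. The first of these cells also held 82 UMIs of *TNFSF10*, 44 of *ISG15*, 24 of *GBP2*, 22 of *WARS1* and 235 of *CD74*, genes that interferons are known to induce, with 34 UMIs of *PECAM1*, 12 of *VWF* and 0.0586% keratinocyte UMIs. Over the stages *IDO1* was at 24.6 CPM in anagen, 41.2 CPM (3 UMIs in 1 cell) in catagen and 1506 CPM in telogen. Without the first cell the telogen level was 545 CPM. Pooled over the stages, *DEPP1*, *FN1*, *EPAS1* and *SERPINA5* were also highest in the cells of neither set. They were at 1252 CPM in 15 of the 30 cells, 697 CPM in 11, 231 CPM in 13 and 137 CPM in 9. The other sets held at most 253, 59.1, 81.2 and 4.92 CPM. For *DEPP1* this order held in telogen alone, where the 2 highest cells held 87 UMIs each of 235. Venous-like cells held 62 of its 75 UMIs in anagen and 28 of 38 in catagen. Of the 160 UMIs of *FN1*, 109 were in telogen, 51 of them in 1 cell.

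Across the stages only anagen had 50 or more endothelial cells, so levels are set side by side without ratios. *CCL21* was at 1841 CPM (1717 to 1971) in anagen, 151 CPM (75.4 to 270) in catagen and 131 CPM (92.7 to 180) in telogen. It was seen in 17 of 65, 5 of 23 and 6 of 36 cells, shares that overlap in their intervals, and 1 anagen cell held 277 of the 824 anagen UMIs. Without that cell the anagen level was 1254 CPM. It was 2476 CPM without the cells rich in keratinocyte UMIs and 2957 CPM without the 4 anagen cells in the top 5% of UMIs. Within the lymphatic-like cells *CCL21* was at 5686 CPM in 18 anagen cells (median 7 UMIs per cell), 428 CPM in 9 catagen cells (median 1) and 734 CPM in 10 telogen cells (median 1). Its level per cell thus differed more than the share of cells with a UMI.

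*MMRN1* took another order. It was at 427 CPM in anagen, 2019 CPM in catagen and 307 CPM in telogen, and within the lymphatic-like cells at 1266, 5648 and 1622 CPM, with medians of 8, 9 and 7 UMIs per cell. Among the anagen lymphatic-like cells, 1 cell with 4.68% keratinocyte UMIs held 68051 of their 144558 UMIs and 9 UMIs of the lymphatic genes. It lowers the anagen CPM of *MMRN1* and *CCL21* within this set, so the order of anagen and telogen for *MMRN1* is not secure. The catagen level without its highest cell was 1452 CPM, and without the cells rich in keratinocyte UMIs the levels of *MMRN1* were 819, 2701 and 528 CPM. The lymphatic-like cells made up 27.7% (17.3 to 40.2) of the endothelial cells in anagen, 39.1% (19.7 to 61.5) in catagen and 27.8% (14.2 to 45.2) in telogen, intervals that overlap.

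Venous-like cells made up 52.3% (39.5 to 64.9), 30.4% (13.2 to 52.9) and 44.4% (27.9 to 61.9) of the endothelial cells in anagen, catagen and telogen. Within them *ACKR1* was at 2693, 2292 and 3339 CPM, with medians of 14, 8 and 18.5 UMIs per cell. *SELE* was at 1489, 1930 and 590 CPM and *SELP* at 1077, 1297 and 283 CPM, with medians of 4, 1 and 1.5 UMIs per cell for *SELE* and 4.5, 4 and 2 for *SELP*. The summed level of both was lowest in telogen, with telogen intervals of 482 to 714 and 210 to 374, but by the mean of each cell's CPM over all endothelial cells *SELE* was as low in catagen (462) as in telogen (466). *SELE* was seen in 4 of the 7 catagen cells, and 1 of them held 32 of the 64 catagen UMIs. *ADAMTS4* in all endothelial cells was lowest in telogen, at 807, 1044 and 141 CPM, and 574 CPM in catagen without its highest cell. Without the cells rich in keratinocyte UMIs *ADAMTS4* was at 1634, 1370 and 257 CPM, with anagen above catagen. Over all endothelial cells *SELE* went from 657, 879 and 358 CPM to 1298, 1233 and 514 CPM when those cells were left out. *ACKR1* went from 1186, 1058 and 2040 CPM to 2195, 1253 and 2931 CPM. These intervals rest on the UMIs of 1 library a stage and hold no spread between animals or between cells.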

How the data were processed

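The authors deposited 1 matrix of raw UMI counts per stage, as Cell Ranger wrote it, with no normalization. The processing notes name Cell Ranger 2.1.1, while the file headers name 4.0.0 (anagen), 3.1.0 (catagen) and 6.0.2 (telogen). The genome build is not given in the sources used here, the matrices hold no positions, and 15765 of 26924 genes carry a symbol. The matrices held 12000, 12124 and 14573 cells and 82862998, 51647865 and 103511775 UMIs. A minimum of 200 detected genes per cell was applied. No doublet caller was run, and endothelial cells with 2% or more keratinocyte UMIs were left out as an alternative chosen after seeing the data. 

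Levels are UMIs summed over cells and scaled to 1000000 UMIs of the same cells (CPM), not divided by gene length. The 124 endothelial cells held 810511 UMIs, so 1 UMI was 1.23 CPM and 3 UMIs, the floor, 3.70 CPM. Other cells were weighted by the endothelial UMIs of each library, and ratios had 10 CPM added to each side. Intervals are 95% Poisson for levels and Clopper-Pearson for shares. Genes were named by rule: the 4 rule genes, the 25 highest and 10 lowest ratios among symbols with at least 50 CPM, and genes of 28 lists written by hand. The members and lists were chosen with earlier results of these data known. No test was possible with 1 library per stage. The step was tested on simulated data. Alternatives were other thresholds, genes, filters, depths, scalings and libraries. Python 3.11.15, numpy 2.4.6, pandas 2.3.3, scipy 1.17.1 and matplotlib 3.10.9 were used.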

Additional observations from a re-analysis of the deposited data

Results flagged for a closer look

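*TOP2A*, the mitotic topoisomerase, lay below the other cells in the endothelial cells of 2 stages and above them in the third. The ratio of endothelial to other cells was 0.198 in anagen, 1.69 in catagen and 0.0898 in telogen, and the difference between stages was not tested. The catagen value came from 3 cells, of which 1 held 10 UMIs, and telogen had 0 UMIs in 36 cells.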

How the results depend on the processing

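The share of endothelial cells pooled over stages was 0.384% with at least 2 UMIs of the rule genes, 0.246% with at least 5 (catagen 0.108%), 0.237% with cells thinned to 1500 UMIs (anagen 0.342%) and 0.259% without the cells rich in keratinocyte UMIs. With *PECAM1* left out of the rule it was 0.169% (0.267%, 0.0663% and 0.172% in anagen, catagen and telogen), and the lymphatic-like and venous-like cells then made up 12.3% and 70.8% of the members. The 114 genes at least 4-fold higher became 193 without *PECAM1*, 256 after thinning, 186 without the 8 cells in the top 5% of UMIs of their library, 228 without those rich in keratinocyte UMIs, 177 with the mean of each cell's CPM, 45 at 8-fold and 231 in catagen alone. A filter on immune UMIs, planned with that on high UMI counts, met 0 endothelial cells and left none out. The other 62 values of these shares and counts stayed within their counting interval or within 1.5 times. Pooled, *TOP2A* was lower in the endothelial cells, and in catagen alone its ratio was 1.69. Single stage levels moved more: the telogen level of *IDO1* ran from 545 CPM without its highest cell to 2931 CPM without the cells rich in keratinocyte UMIs. Median-of-ratios scaling between stages was not run, since only anagen had 50 cells. No paired analysis was possible because each stage has 1 library, and within a library the sets of cells were chosen by their own transcripts, so their differences were described and not tested. In catagen 1 UMI was 13.7 CPM, so genes under 41.2 CPM lay below the floor of 3 UMIs there.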

Other observations

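Early response genes, which dissociation is known to induce, summed to 12116 CPM against 9276 CPM in anagen, 12843 against 10487 CPM in catagen and 9234 against 4560.5 CPM in telogen. Of 15 with a row, 0 were at least 4-fold higher (1.1% over all genes). The 13 that reached 50 CPM on either side had a median log2 ratio of 0.51 beside 0.11 for all genes. With genes of at least 10 CPM the median of the list was 0.38. *JUN* was at 2896 CPM against 2032 CPM, *FOS* at 1043 against 850 CPM and *IER3* at 1281 against 648 CPM. *SOCS3*, an inhibitor of cytokine signalling, had the highest ratio of the 13 at 2.98, with 86.1 CPM in venous-like and 9.01 CPM in lymphatic-like cells. Of the 13, *SOCS3* and *ZFP36* reached 50 CPM in the endothelial cells alone, which raised the median of the 13.

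*ADGRF5* was at 239 CPM in lymphatic-like cells, 258 CPM in the cells of neither set and 36.9 CPM in venous-like cells. *SPARCL1* had 13.5, 154 and 207 CPM in lymphatic-like cells, cells of neither set and venous-like cells. A gene without a symbol, ENSBGRG00000004627, was likewise low in lymphatic-like cells, at 54.1 CPM pooled over the stages. It was at 2355 CPM in venous-like cells, 4069 CPM in the cells of neither set and 9.03 CPM in other cells. Venous-like cells held 634 of its 757 UMIs in anagen, 23 of 143 in catagen and 300 of 810 in telogen. The cells of neither set were thus above venous-like cells in catagen and telogen but not in anagen. Its highest cell held 97 UMIs in catagen and 296 in telogen. Another gene without a symbol, ENSBGRG00000025660, was seen in 113 of the 124 endothelial cells. It was at 728, 1003 and 1851 CPM in anagen, catagen and telogen, against 5.04 CPM in other cells.

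Of the junction genes 1 of 9 with a row was at least 4-fold higher (*JAM2*), of the Notch genes 0 of 10 and of the genes of tip cells and angiogenesis 2 of 9 (*ANGPT2* and *COL4A1*), beside 1.1% over all genes. The tip cell genes *ESM1* and *APLN* had 0 UMIs. *EDN1*, the vasoconstrictor endothelin, was seen in 16 venous-like cells and in 0 lymphatic-like cells, and *NOS3*, the endothelial nitric oxide synthase, had 12 UMIs in 7 cells.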
